A study of Homo sapiens with 16 samples.

Results

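The native 5′ starts of transcription in K562 cells were set against the starts that the same DNA gave inside a long lentiviral reporter. K562 is a human erythroleukaemia cell line, labelled wild type in all samples. The reporter values come from the 2 LentiLong replicates, in which a pool of inserts with 350 deposited positions each was carried by a lentiviral vector and read by TSS-MPRA, an assay that sequences the 5′ ends of capped reporter RNA. A DNA library of each replicate was counted as well. The native values are 2 sets named csRNA in the deposited tables (csRNA-seq reads the 5′ ends of short capped RNA, that is, of newly started transcripts at their own place in the genome). No sample of the series is labelled csRNA, so these sets are described as 2 sets of values and no p-value is given between the assays. No treatment, integration site or number of integrations is given in the labels, and nothing there says that replicates were separate cultures.

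All 250 inserts of the long table, each present with 2 barcodes, were included by their place in the table and not by any measured value. Of these, 159 had at least 50 reads in each of the 4 sets and were compared. The other 91 were left out, 85 because a csRNA set had under 50 reads and 6 because a reporter replicate had. The lowest count kept was 52, and the left-out insert nearest to the limit had 49 reads in its poorest set. Total reads were 14409521 and 16877640 in the reporter replicates but 48762 and 57704 in the csRNA sets, so the native profiles are the less precise ones: a median insert had 17020 and 19143 reporter reads and 90 and 103 native reads.

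Several signals in DNA help RNA polymerase II choose a start. A TATA box fixes the start a short way downstream of itself, an initiator places it on a purine that follows a pyrimidine (the most usual pair is CA), and CpG-rich promoters that lack a TATA box often use many starts. In the genome the start is also chosen within chromatin, next to a well-placed first nucleosome and with distant elements at work, whereas a reporter holds the insert, the vector around it and, with a lentivirus, whatever chromatin forms where the vector lands.

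Places in an insert are given in bp from the middle of the region after which it is named, downstream being positive. In the hg38 reference 64.7% and 64.3% of reporter reads and 71% and 70.3% of native reads started on a purine after a pyrimidine when the deposited positions were laid on the region, against at most 24.7% at the next best offset. Of the 250 inserts, 101 lay within 500 bp of a GENCODE transcript start on their own strand and are called by that gene, 53 had such a start on the other strand only and are called "opposite" that gene, and 96 had none and are called by their start coordinate. Genes of the erythroid list, and of the list for other blood cells, were not among the inserts, so the cell line's markers could not be read here.

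These 7 sequences show where the native and the reporter RNA began. The main start of an assay is the position with the largest share of reads, averaged over its 2 replicates or csRNA sets. Sequences read 5′ to 3′ on the insert's strand of hg38. In each, capitals mark the last base before and the first base of the main native start and of the main reporter start. In TRAF3IP2-AS1 they also mark a TATAAA. The first 3 inserts had near-identical profiles in both assays and 1 shared main start, so they hold 1 capital pair.

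Opposite ABT1, chr6:26596775-26596825, minus strand: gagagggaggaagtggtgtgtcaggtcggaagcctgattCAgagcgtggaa

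ENSG00000272667, chr2:127886455-127886505, plus strand: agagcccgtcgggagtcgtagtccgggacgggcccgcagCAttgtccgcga

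Opposite MRFAP1L1, chr4:6709995-6710045, plus strand: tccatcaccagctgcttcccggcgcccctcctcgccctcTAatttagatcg

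TRAF3IP2-AS1, chr6:111483859-111483912, plus strand, TATA box and neighbouring main starts: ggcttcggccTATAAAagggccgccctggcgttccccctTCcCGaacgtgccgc

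In the next 3 the reporter's main start, the second capital pair, lay far downstream of the native one.

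ENSG00000270019, chr2:113889701-113889807, minus strand: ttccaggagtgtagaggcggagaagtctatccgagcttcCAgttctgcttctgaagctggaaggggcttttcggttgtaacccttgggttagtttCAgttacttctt

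Opposite UBE2Z, chr17:48908208-48908342, minus strand: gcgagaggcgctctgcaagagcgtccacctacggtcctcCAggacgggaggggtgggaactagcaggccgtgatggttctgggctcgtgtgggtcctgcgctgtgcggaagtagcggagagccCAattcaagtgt

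MIR223HG, chrX:66015206-66015449, plus strand: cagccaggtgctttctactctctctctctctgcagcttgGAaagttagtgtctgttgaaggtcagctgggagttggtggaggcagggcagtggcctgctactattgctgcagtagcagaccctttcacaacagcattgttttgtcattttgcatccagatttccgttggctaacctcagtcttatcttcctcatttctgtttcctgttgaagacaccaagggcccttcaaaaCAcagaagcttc

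In all 3 of these displaced inserts the reporter's main start sat on a CA. Over all 159 inserts, the main start sat on a CA in 80 natively and in 96 in the reporter, and on some pyrimidine followed by a purine in 142 in each assay. Among the 37 inserts whose reporter start lay over 50 bp downstream of the native one, a CA stood at 19 native and at 21 reporter main starts, and a pyrimidine and a purine at 31 of each. The reporter's displaced starts thus had this base pair as often as the native starts they stood in for.

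Taken position by position, native reads were gathered at the middle of the insert and reporter reads reached downstream of it. On average over inserts, 28.7% and 28.5% of native reads in the 2 csRNA sets started exactly at the middle, against 15.1% and 14.9% in the reporter replicates. No other single position averaged over 2.31% natively or 1.71% in the reporter. Whether the regions were centred on these same native reads is not given in the sources used here, so the native peak at the middle is a description. Downstream of the middle the order was turned: the window from 48 to 72 bp held 15.2% and 14.9% of reporter reads and 2.94% and 3.62% of native reads, and the window from 73 to 97 bp held 9.08% and 10.1% against 2.22% and 2.10%.

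**Figure D1:**
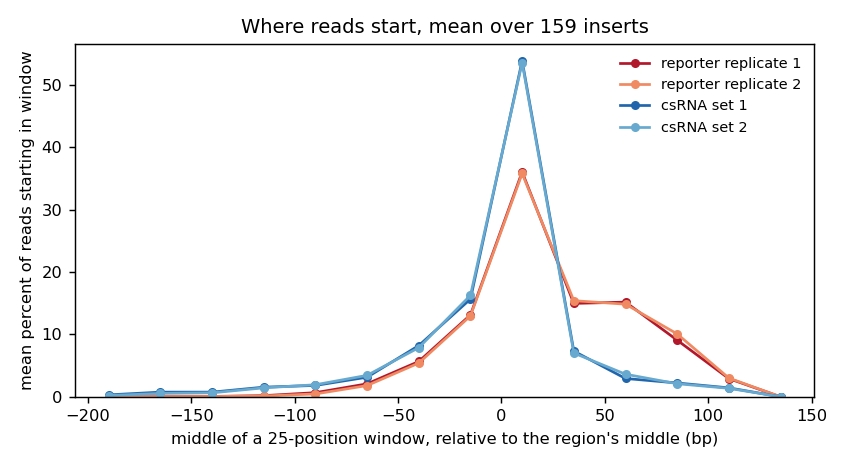
The vertical axis gives the mean percent of an insert's reads that start in each window of 25 positions, over 159 inserts, and the horizontal axis gives the middle of the window relative to the middle in bp. The 2 replicates of each assay (reporter in reds, native csRNA in blues) overlie each other, native reads are the higher ones at the middle (53.9% and 53.6% against 36.1% and 35.8%), and reporter reads are the higher ones in the windows from 23 to 122 bp.

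Whole profiles were set against each other by earth mover distance, the mean number of bp by which reads have to be moved to turn one profile into the other. Its median over the 159 inserts was 1.69 bp between the reporter replicates and 5.29 bp between the csRNA sets. Between assays the 4 pairs of a replicate and a set had medians of 22.8, 20.8, 22.9 and 21.4 bp, and the mean over pairs ranged from 2.94 to 116.6 bp with a median of 22.4 bp. In 146 of 159 inserts (91.8%) all 4 distances between assays exceeded both distances within an assay. The 2 barcodes of an insert, read separately, lay a median of 4.35 and 4.03 bp apart in the 2 replicates, so carrying another barcode moved the profile far less than the change of assay. Read for read without regard to distance, the median share of reads at other positions was 10.1% between reporter replicates, 32.8% between csRNA sets and 58.9% to 62.5% between assays.

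Most inserts had another main start in the reporter than natively. Natively the main start was at the middle itself in 133 inserts, and in the reporter in 51. It lay within 5 bp in the 2 assays in 63 of 159 inserts (39.6%), and was the identical base in 49. Within an assay it lay within 5 bp in 143 inserts between the reporter replicates and in 119 between the csRNA sets. Where it moved, it moved mostly downstream: 72 inserts had the reporter's main start over 5 bp downstream, by a median of 53 bp, and 24 had it over 5 bp upstream, by a median of 17.5 bp. Shifts over 50 bp were downstream in 37 inserts and upstream in 5.

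In those 37 inserts the assays nearly exchanged their starts. The median share of reads within 5 bp of the reporter's main start was 41.8% and 43.6% in the reporter replicates and 1.28% and 1.32% in the csRNA sets. The median share within 5 bp of the native main start was 1.34% and 1.33% in the reporter and 38.2% and 35.9% natively. These shares follow from how the 37 were chosen and are given as a description. Some native reads lay at the reporter's start in most of them, since 7 of the 37 had no native read there in either csRNA set.

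**Figure D2:**
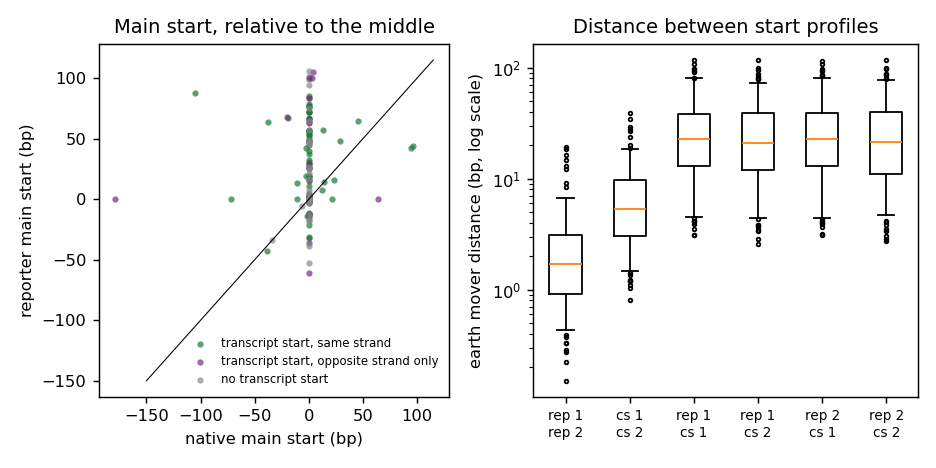
At left each point is 1 of 159 inserts, with its native main start on the horizontal and its reporter main start on the vertical axis, in bp from the middle, coloured by whether a transcript start is annotated nearby; the line marks equal positions. At right, boxes give medians and quartiles and whiskers the 5th and 95th percentiles of the earth mover distance in bp on a log scale, for the reporter replicates, the csRNA sets and the 4 pairs between assays, whose medians (20.8 to 22.9 bp) lie above those within an assay (1.69 and 5.29 bp).

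The inserts with the most faithful profiles were of all 3 kinds. Among inserts whose replicates and sets lay under 10 bp apart, the smallest distances were those of the inserts opposite ABT1 (2.94 bp), ELF1 (3.29 bp), ENSG00000272667 (3.43 bp), opposite MRFAP1L1 (3.74 bp), intergenic chr2 10254666 (3.80 bp), intergenic chr1 244370223 (4.06 bp), ZNF646 (4.13 bp) and LIAS (4.31 bp). The insert opposite ABT1, a gene for an activator of basal transcription, had 49.0% and 49.5% of reporter reads and 53.6% and 48.0% of native reads within 5 bp of the middle. Its reads were spread over 4 positions in each reporter replicate and 5 and 6 positions in the csRNA sets (the fewest that hold 50% of reads). Over the 159 inserts the medians were 4 in both replicates and 3 in both csRNA sets. Its profile was thus broader than the median natively and at the median in the reporter. ELF1, which encodes an ETS-family transcription factor, was sharp: 88.1% and 87.5% of reporter reads and 96.7% and 97.2% of native reads fell within 5 bp of the native start. LIAS, whose enzyme makes the lipoyl cofactor of mitochondrial dehydrogenases, had 81.2% and 83.6% there in the reporter and 82.6% and 81.3% natively, so that the ranges of the assays overlapped. The nearest annotated start on the strand of the LIAS insert lies downstream, outside the insert.

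A TATAAA or TATATA stood 20 to 40 bases before the native main start in only 3 inserts, ELF1, TRAF3IP2-AS1 and the one opposite DMD, the dystrophin gene. All 3 kept their main start within 5 bp in the reporter, against 60 of the other 156. Their distances were 3.29, 13.4 and 11 bp. In TRAF3IP2-AS1, shown above, the reporter replicates had 78.7% and 77.4% of reads within 5 bp of the native start against 98.6% and 93.9% natively, and 11% and 12.8% of reads over 50 bp downstream, where neither csRNA set had a read, which allows up to 0.511% and 0.758%. With 3 inserts these values are a description.

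The largest distances among inserts chosen by the same rule all came with starts far downstream. MIR223HG, the host transcript of the myeloid microRNA miR-223, was the farthest at 116.6 bp. Natively its reads were spread over clusters, with the most reads at -105 bp in one csRNA set and at the middle in the other, and 40.9% and 26.8% of reads within 5 bp of the former. In the reporter that upstream cluster held 0% (which allows up to 0.00458%) and 0.0671% of reads, and 89.2% and 88.5% began over 50 bp downstream of the middle, against 18.3% and 15.8% natively. The next were TMEM219 (97.8 bp), ZXDC (84.8 bp), SLC39A3 (80.4 bp), RAB12 (78.3 bp), SCRN3 (72.4 bp) and NRBP2 (71.4 bp).

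SLC39A3 encodes a zinc importer. In it, a start at 85 bp led in both reporter replicates, with 99.8% and 99.3% of reads over 50 bp downstream of the middle, where the csRNA sets had 0.196% and 0.318%. No reporter read in either replicate lay within 5 bp of its native start, which held 59.1% and 56.3% of native reads. A count of 0 allows up to 3 reads, here a share of up to 0.304% and 0.285%, and such limits cover counting error only. SCRN3 moved from a broad native profile, in which 6 positions held 50% of reads in each csRNA set, to 2 positions in each reporter replicate.

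**Figure D3:**
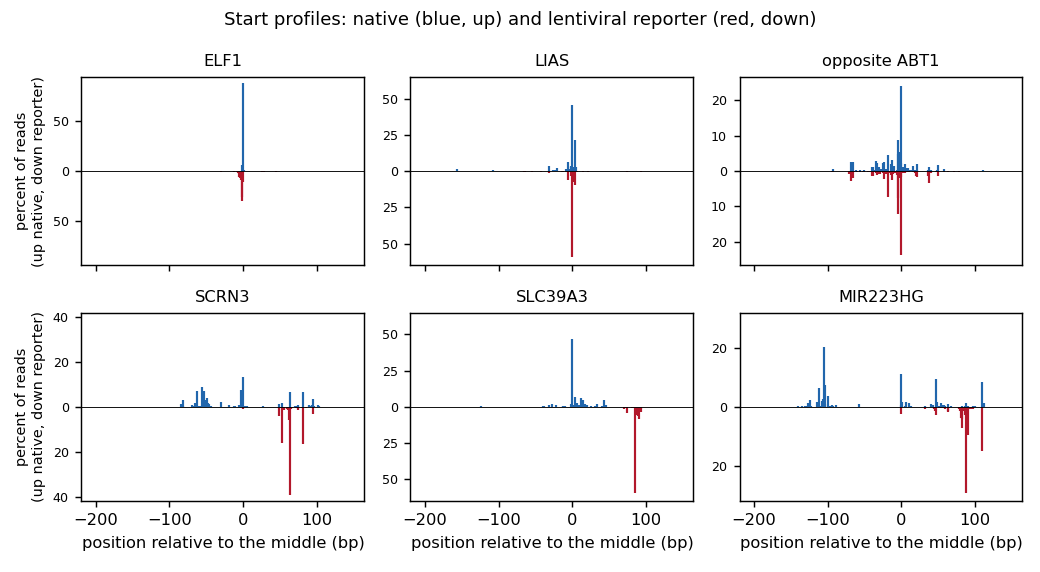
Percent of an insert's reads starting at each position (vertical axis, mean of the 2 csRNA sets upward in blue and of the 2 reporter replicates downward in red) against the position relative to the middle in bp. ELF1, LIAS and opposite ABT1 are near mirror images with distances of 3.29, 4.31 and 2.94 bp, whereas SCRN3, SLC39A3 and MIR223HG have their red lines far to the right, with distances of 72.4, 80.4 and 116.6 bp.

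The depth of the reporter differs among these. SLC39A3 had 988 and 1052 reporter reads, RAB12, a small GTPase of membrane traffic, 196 and 434, TMEM219 140 and 179, ZXDC 99 and 60, and NRBP2, a pseudokinase, 74 and 122. By contrast MIR223HG had 65440 and 82028 and SCRN3 25285 and 29029. Of the 159 inserts, 16 had under 1000 reads in a reporter replicate. These had a median distance of 76.4 bp, a median GC content of 73.9%, 1 main start within 5 bp of the native one, and 13 of the 37 shifts over 50 bp downstream. Their DNA was present, with at least 802 reads in each replicate and a median of 8398. The part of sparse RNA in these profiles was not tested. In the 143 inserts with more reads, the median distance was 19.8 bp, 62 main starts lay within 5 bp, and 24 lay over 50 bp downstream, so the shift was there without the sparse inserts as well.

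Starts over 50 bp from the middle, taken in both directions, made up a median of 17.7% and 17.9% of reporter reads and 8.53% and 8% of native reads. The middle was the native main start in 133 of 159 inserts and the reporter's in 51. Counting from it therefore favours a low far share natively, and the far shares are a description. Both reporter replicates lay above both csRNA sets in 98 of 159 inserts (61.6%), both csRNA sets above both replicates in 39 (24.5%), and the values overlapped in 22. This balance depends on the limit: with far meaning over 100 bp, the share was higher in the reporter in 55 inserts and natively in 56. Split by direction, the assays stood further apart. Downstream, the median share was 12.8% and 13.5% in the reporter against 1.32% and 2.13% natively, with the reporter higher in 133 inserts (83.6%) and native reads in 12 (7.55%). Upstream, the median was 0.482% and 0.419% in the reporter against 2.21% and 1.90% natively, with the reporter higher in 37 (23.3%) and native reads in 84 (52.8%).

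In 31 of the 159 inserts neither csRNA set had a downstream read. Asking for a gap of over 10 percentage points left 66 inserts with the higher downstream share in the reporter and 3 natively. Upstream it left 4 with the higher share in the reporter and 29 natively. Over 50% of reads were downstream in both replicates in 31 inserts, and in both csRNA sets in 1. No reporter read of any insert started beyond 111 bp and no native read beyond 117 bp, so that the profiles end before the insert does.

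The inserts whose far share rose most, with no overlap, were SLC39A3 (by 98.9 percentage points between the means of the assays), RAB12 (97.0), TMEM219 (90.2), ENSG00000289569 (85.8), LSM6 (82.6) and ZXDC (81.4). LSM6, whose protein belongs to the Lsm ring of the U6 snRNA, had 83.3% and 90.2% far reads in the reporter and 5.33% and 3.02% natively, from 1335 and 1611 reporter reads. ENSG00000289569 had 93.5% and 93.8% against 6.17% and 9.60%, from 752 and 887 reporter reads. Of these 6 inserts, only LSM6 had 1000 or more reads in both replicates.

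In the opposite direction the far share was lower in the reporter by 40.7 percentage points in C1RL, 36.1 in intron chr21 33947884, 31.8 opposite PTPN18, 29.1 in ZBTB8OS, 28.2 in PDE12 and 24.9 opposite ZNF326. C1RL, a serine protease related to complement C1r, had 69.1% and 48.9% far reads natively, led by starts at -120 and -125 bp, and 19.6% and 17.0% in the reporter, led by -32 bp. ZBTB8OS had the same main start, the middle, in all 4 sets, but 50.4% and 55.0% of its native reads were far from it against 25.2% and 22.0% in the reporter. PDE12, a phosphodiesterase of mitochondrial RNA, likewise kept the middle and fell from 40.6% and 34.7% natively to 10.1% and 8.71%. Native reads numbered 123 and 94 in C1RL, 740 and 1018 in ZBTB8OS and 631 and 831 in PDE12.

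Profiles were not sharper in the reporter. The fewest positions that hold 50% of reads had a median of 4 in both replicates and 3 in both csRNA sets. The reporter used more positions, with no overlap, in 64 inserts (40.3%), and fewer in 36 (22.6%). The remaining 59 overlapped. Since few reads cannot fill many positions, the native counts bear on this comparison, and the part of depth was not tested.

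Starts in both assays stood mostly on pyrimidine and purine pairs near the middle, downstream and upstream of it, least often upstream. Within 50 bp of the middle, such a pair stood at a median of 68.4% and 67.4% of reporter starts and 75.2% and 74.5% of native ones, while 21.8% to 22.8% of positions have it. Over 50 bp downstream the shares were 65.7% and 67.3% in the reporter over 158 inserts. Natively they were 75% and 72.1%, over the 49 and 56 inserts that had 10 or more reads there. Over 50 bp upstream the shares were 57.6% and 58.4% in the reporter, over 119 and 118 inserts. Natively they were 67.9% and 68.4% there, over 56 and 57 inserts, while 21.2% to 21.9% of upstream positions have the pair. Downstream reporter starts thus stood on the pair far more often than the 21.3% of positions that carry it.

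For the 86 compared inserts with a transcript start on their own strand, the annotated start nearest to the middle was taken. It lay a median of 13.5 bp from the native main start and 47 bp from the reporter's. The native start was the nearer one in 52, the reporter's in 13, and they were equally near in 21. Choosing the annotated start by the middle, where 133 of 159 native main starts lay and 51 in the reporter, favours the native assay. Other annotated starts of an insert were not considered, so these values are a description. The 86 inserts had a median distance of 24.97 bp between assays, and 27 of 86 main starts within 5 bp (31.4%). The 33 inserts opposite a gene had 24.3 bp and 15 (45.5%), and the 40 inserts without an annotated start had 15.9 bp and 21 (52.5%). Median GC content was 63.9%, 62.6% and 49.7% in these 3 kinds, so that kind and base composition moved together.

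GC content itself went with the distance. With the inserts split into 4 classes of rising GC content, the median distance was 15.5, 20.5, 27.1 and 40.5 bp, and the reporter's median downstream share 11.7%, 11.4%, 15.4% and 41.04%. The native downstream share had no such order, at 2.27%, 1.05%, 1.57% and 2.40%. Spearman's rho of GC with distance across the 159 inserts was 0.33, and 0.18 in the 143 with at least 1000 reporter reads. Inserts share libraries and depth, so these are descriptions, and no p-value applies.

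Short motifs were searched as exact letters on both strands of the whole insert. The ETS core CCGGAA was in 59 of all 250 inserts, and its 43 compared inserts had a median distance of 27.5 bp against 18.7 bp in the other 116. The AP-1 site TGACTCA was in 27 of 250, and its 10 compared inserts had 16.7 bp against 22.6 bp in the rest. A match says only that the letters are there, and these differences were not tested.

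Genes of the functional lists were few. The transcription machinery had 3 inserts with distances of 6.83 bp in POLR2H, a shared RNA polymerase subunit, 9.76 bp in MED23, a Mediator subunit, and 8.52 bp in TAF9B, a TFIID subunit. POLR2H and MED23 had the middle as main start in all 4 sets, and TAF9B moved from there to 15 bp. All 3 lay below the 22.4 bp median of all compared inserts. The zinc finger list had 5 inserts, 2 of them with main starts within 5 bp (over all compared inserts, 39.6%), at 4.13 bp in ZNF646, 34.1 bp in ZBTB8OS, 47.7 bp in ZSCAN5A, 78.7 bp in ZSCAN29 and 84.8 bp in ZXDC. ZBTB8OS was listed by its symbol, yet its protein is an archease that aids tRNA ligation. ZSCAN29 had 137 and 79 reporter reads, and its replicates led at 50 and 88 bp.

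Among respiratory genes, COX17, a copper chaperone for cytochrome c oxidase, lay at 31.7 bp, with its main start at 4 and 0 bp in the csRNA sets and at 56 bp in both reporter replicates. NDUFC1, a subunit of complex I, lay at 16.1 bp with its main start at -13 bp in both replicates and at the middle natively. The proteasome assembly factor PSMG4 lay at 45.4 bp and led at 76 bp, from 712 and 1018 reporter reads. The splicing factor SF3B3 lay at 12.9 bp, with its main starts over 5 bp apart between the assays. Its reporter replicates differed, at 17.9 and 6.51 bp from the mean of both csRNA sets. No insert belonged to the lists of ribosomal proteins, histones, snoRNA hosts or immediate early genes.

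Reporter and native levels were only loosely related. Level is given as reads per 10000 of a set's total over all inserts. Spearman's rho across the 159 inserts was 0.25 between the means of the assays, 0.23 to 0.26 over the 4 pairs, 0.999 between reporter replicates and 0.957 between csRNA sets. The reporter level was over 2-fold higher, both replicates against both sets, in 24 inserts (15.1%) and the native level in 88 (55.3%). The median difference on the log2 scale was -1.45, which moves with the scaling: edgeR's TMM factors made it -0.52, with 35 inserts higher in the reporter and 56 natively. With reporter RNA divided by DNA reads, and every set then divided by its own median over the compared inserts, it was -0.07, with 39 and 47. That centring puts the median difference near 0 in advance, so these values do not bear on which assay was higher. How far native-high inserts outnumber reporter-high ones therefore depends on the scaling. The read minimum bears on it too, as it left out 85 inserts for low native reads and 6 for low reporter reads. The compared inserts were thus chosen partly for a high native level, and the balance describes only them. With at least 20 reads in every set, 45 inserts were higher in the reporter and 101 natively, and with at least 200 reads 9 and 38.

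The highest reporter excess was that of intergenic chr7 131072099, at chr7:131072099-131072448, with 372 and 385 reads per 10000 in the reporter and 12.7 and 11.4 natively, a log2 difference of 4.97. It had only 1074 and 1107 DNA reads, against a median of 15408 and 17313 per insert. The insert opposite ENSG00000277332 followed with 798 and 765 against 23.4 and 34.3, a log2 difference of 4.79. Others were intron chrX 52934954 (3.02), opposite ZNF274 (2.97), opposite CHD1-DT (2.91), TRIM21 (2.76) and GID4 (2.57). TRIM21, a ubiquitin ligase that binds antibodies, had 697 and 705 in the reporter and 106 and 101 natively, with its main start at 18 bp in place of the middle. Opposite CHD1-DT the DNA count was itself high, at 333274 and 338430 reads.

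At the other end, NRBP2 had 0.0514 and 0.0723 reads per 10000 in the reporter and 138 and 143 natively, a log2 difference of -11.17. ZSCAN29 (-10.43), ZXDC (-10.30), opposite AFF1 (-9.91), PRADC1 (-9.21), LARP1 (-8.41), SF3B3 (-8.28) and RAB12 (-8.20) followed. LARP1, an RNA-binding protein that controls mRNAs of the translation machinery, had 56 and 67 reporter RNA reads beside 22947 and 21636 DNA reads. In SF3B3, whose GC content was 44%, DNA was scarce, at 760 and 1042 reads, and RNA stood at 1097 and 1098. The 3 inserts ADAMTS14, CERS2 and opposite C17orf58 had no reporter read in either replicate, which allows up to 3, and are not among the 159. Natively they had 496 and 581, 622 and 835, and 98 and 125 reads. In each replicate 2 of the 250 inserts had under 20 DNA reads, whereas every compared insert had at least 251. The DNA counts of these 3 inserts are not given here, so missing RNA cannot be told apart from missing DNA.

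Level and GC content were related too. The median log2 level difference in the highest of these GC classes was -3.24, and in the others -1.21, -0.80 and -1.15 from low to high GC. Spearman's rho of GC with the level difference was -0.32 over 159 inserts and -0.11 over the 143 with at least 1000 reporter reads. Between GC and the reporter's RNA per DNA, a value without the native level, rho was -0.50 over 159 inserts.

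**Figure D4:**
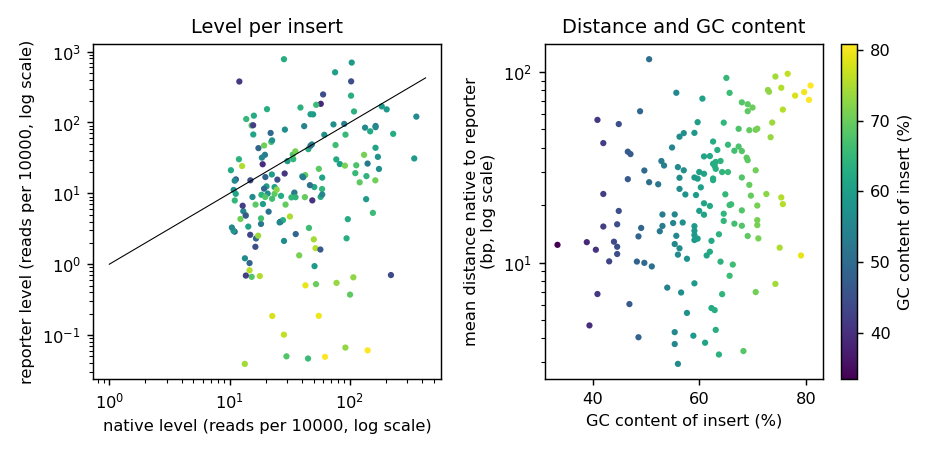
At left, each of 159 inserts is a point with its native level on the horizontal and its reporter level on the vertical axis (geometric mean of both sets or replicates, reads per 10000, log scales; the line marks equal levels). At right, the mean distance between native and reporter profiles in bp (log scale) is set against GC content in percent; colour is GC content in both panels. GC-rich inserts lie at the bottom of the left panel and to the upper right of the right one, where Spearman's rho was 0.33.

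Whether the lentiviral vector came nearer to native starts than the episomal one was asked with the EpiLong libraries, in which the same inserts sit in an episomal vector in K562 cells, also with 2 replicates. For each replicate the distance to the mean of both csRNA sets was taken, and log2(distance + 1 bp) was compared in limma with Benjamini-Hochberg adjustment over 157 inserts. Such p-values measure the spread between these replicates, which may be technical, and the vector and its library preparation cannot be told apart.

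Over all inserts the median distances from native were close in the vectors, while many single inserts differed in either direction. Median distances were 21.7 and 22.3 bp in the lentiviral and 24.1 and 22.2 bp in the episomal replicates, with a median log2 difference of -0.03. At an adjusted p under 0.05, 35 inserts (22.3%) were farther from native in the lentiviral vector and 43 (27.4%) nearer. Which direction was the more frequent depended on the setting. Without EpiLong replicate 1 there were 51 such inserts in place of 78, 27 farther and 24 nearer, with a median log2 difference of 0.01. With at least 200 reads in every set 18 were farther and 16 nearer, and in the deposited core table, which holds a middle window of positions, 28 and 25, with a median difference of 0.04 in each. Of the 84 tested inserts with a transcript start on their strand, 26 were farther and 17 nearer. Of the 33 opposite a gene 7 were farther and 8 nearer, and of the 40 without an annotated start 2 were farther and 18 nearer. Their median log2 differences were 0.10, -0.07 and -0.29, and the difference between the kinds was not tested.

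LIAS had the largest difference towards native in the lentiviral vector: its profile lay 4.58 and 3.87 bp from native there and 23.7 and 17.6 bp in the episomal vector (log2 difference -2.04, SE 0.17, adjusted p = 0.0028 in limma). Intergenic chr20 56415134 lay at 9.31 and 8.11 bp against 30.7 and 29.5 bp (-1.68, SE 0.08, adjusted p = 0.0019 in limma). ERCC6L2, a helicase-like protein of DNA repair, lay at 11.05 and 13.7 bp against 34.1 and 33.0 bp (-1.38). The other 2 of the 5 largest were intergenic chr5 149320747 (-1.52) and intergenic chr6 146887273 (-1.50). In these inserts no lentiviral value overlapped an episomal one, which follows from how they were chosen.

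The 5 largest differences away from native were in inserts with a transcript start within 500 bp on their strand. Of the 157 tested inserts 84 were of that kind, and so were 26 of the 35 farther ones. LIAS and ERCC6L2 were of that kind too. TRMT11, which encodes a tRNA methyltransferase, lay at 26.9 and 32.7 bp in the lentiviral and 10.7 and 10.3 bp in the episomal vector (1.42, SE 0.11, adjusted p = 0.0025 in limma). TUT1, a terminal uridylyltransferase of U6 snRNA, lay at 13.2 and 14.6 bp against 5.05 and 4.24 bp (1.40). SOD2, the mitochondrial superoxide dismutase, lay at 29.2 and 30.4 bp against 11.2 and 10.98 bp (1.35, SE 0.05, adjusted p = 0.0019 in limma). LINC00853 (1.13) and GID4, a receptor subunit of a ubiquitin ligase (1.04), were the others.

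**Figure D5:**
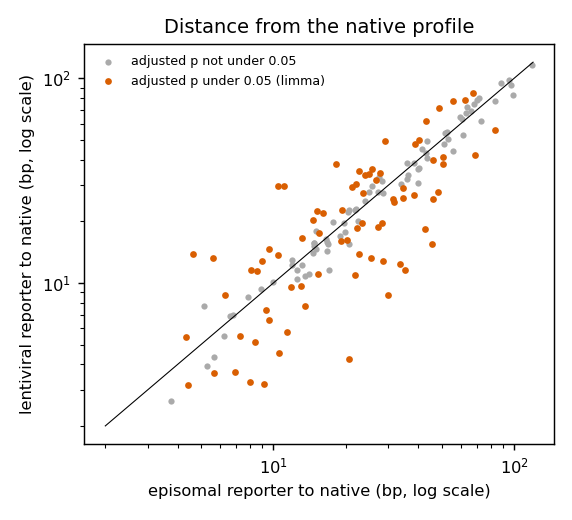
Each point is 1 of 157 inserts, with the mean distance of the 2 episomal replicates from the native profile on the horizontal and that of the 2 lentiviral replicates on the vertical axis (bp, log scales); the line marks equal distances. Orange points, 78 of 157, had an adjusted p under 0.05 in limma, and they lie on both sides of the line, 35 above and 43 below.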

How the data were processed

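TSS-MPRA and DNA libraries of K562 cells were deposited as tables of RNA and DNA counts per barcoded insert and, per position, the fraction of RNA reads starting there, per the file headers and values; the deposited fractions times the counts were rounded to reads (99.72% and 93.73% of nonzero products within 0.05 of a whole number in the reporter replicates, 100% in csRNA). The submitters' processing notes name STAR 2.7.9a and hg38; further steps are not given in the sources used here. Tables stack 4 blocks with no sample column, so replicate numbers rest on the order of names, while csRNA blocks are known by having no DNA reads. Barcodes were summed. Sequence came from hg38 and annotation from GENCODE v44. Values were computed in Python 3.11.15 with numpy 2.4.6, and tested with limma 3.58.1 in R 4.3.3, with TMM from edgeR 4.0.16, after tests on simulated data. The members and lists were chosen with earlier results of these data known. Named inserts were the 8 smallest and 8 largest distances (within-assay distances under 10 bp), the 6 largest far-share differences each way, the 8 largest level differences each way, the 5 largest vector differences each way, and all inserts of a listed gene group; inserts shown as sequence were chosen after their values were seen. Alternatives are in the closing section. Minimum reads were 50 in every set. Some inserts that this rule names are not reported here.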

Additional observations from a re-analysis of the deposited data

Results flagged for a closer look

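The 2 vectors differed in their distance from native starts in 78 of 157 inserts (limma, adjusted p under 0.05). The 10 inserts with the largest differences, as log2 of distance + 1 bp, lentiviral minus episomal, were TRMT11 (1.42), TUT1 (1.40), SOD2 (1.35), LINC00853 (1.13), GID4 (1.04), LIAS (-2.04), intergenic chr20 56415134 (-1.68), intergenic chr5 149320747 (-1.52), intergenic chr6 146887273 (-1.50) and ERCC6L2 (-1.38). Each group has 2 samples, too few to look for a sample that stands apart.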

How the results depend on the processing

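Of 104 recomputed values, 74 stayed within the spread or within 1.5 times the count, and 30 moved. Each was judged alone, and 2 balances between paired counts did turn: that of far starts at over 100 bp, and that of the vectors in 3 settings. With at least 200 reads in every set (65 inserts), 62 were separated, the median distance was 18.0 bp, 26 main starts lay within 5 bp, the far share was higher in the reporter in 43 and natively in 19, 17 were narrower in the reporter, 9 and 38 had the higher level in the reporter and natively, and the rank correlation was 0.168. Fewer inserts enter there. With 20 reads, 45 had the higher reporter level and the correlation was 0.167. The median distance was 11.3 bp in the deposited core table, 15.1 bp within 75 positions of the middle and 61% of reads as total variation. With far meaning over 100 bp, 55 inserts were higher in the reporter and 56 natively, against 98 and 39. TMM left 56 natively higher, and a 4-fold limit gave 9 and 54. RNA per DNA, with each set centred on its own median, gave 39 and 47 with a correlation of 0.206. With at least 1000 reporter reads, a setting chosen after seeing the data, the median distance was 19.8 bp and the correlation 0.354. Leaving out a replicate or set gave correlations of 0.223 to 0.263. For the vectors, 34 inserts were called of 64 with 200 reads, 121 of 247 with 1 read, and 51 to 61 with a replicate left out. Against 35 farther and 43 nearer, there were 27 and 24 without EpiLong replicate 1, 18 and 16 with 200 reads, and 28 and 25 in the core table. A fit with the replicate block called 52, of which 51 were among the 78. The replicates share only a number, with deviations that correlated at 0.14 over inserts. Native depth limits every share near 0.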
